A study of Arabidopsis thaliana with 6 samples.

Results

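AT1G47400, CYP82C4 (AT4G31940) and AT3G12900 are loci of the Arabidopsis response to iron deficiency. They were picked by locus from the authors' deposited comparison of the genotypes, where each has 1 probe set of its own, and they make up 3 of 22746 probe sets on each array. AT1G47400 encodes a short peptide of the iron deficiency response, AT3G12900 an oxygenase of coumarin synthesis and CYP82C4 a cytochrome P450. They were chosen because their intensity differed so much between the genotypes, so their genotype difference is described below and is not tested.

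The plants were gapcp1gapcp2 double mutants (3 arrays) and wild type (3 arrays), both in the Col 0 background and both harvested as whole seedlings 15 days old. GAPCP1 and GAPCP2 encode the plastid form of glycolytic glyceraldehyde-3-phosphate dehydrogenase. The labels give no alleles, and no probe set of either gene could be named, so the labels could not be checked on the targeted transcripts. Seedlings of both genotypes grew at the same time on vertical plates of dilute medium in long days, and RNA was prepared from 3 sets of plants per genotype. The iron supply of the medium is not given in the sources used here.

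Arabidopsis takes up iron by acidifying the soil around the root, reducing ferric iron at the root surface and importing ferrous iron through the transporter IRT1. Roots short of iron also release coumarins, phenolic compounds made from phenylalanine, and those with a catechol group bind and reduce ferric iron. In that branch the oxygenase of AT3G12900 hydroxylates scopoletin to fraxetin, and CYP82C4 then hydroxylates fraxetin to sideretin. The peptide of AT1G47400 belongs to a family that accumulates in iron-deficient leaves and roots and promotes expression of uptake genes by binding BRUTUS (BTS), a ubiquitin ligase that otherwise restrains them.

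The array medians lay between 110.67 and 117.12 intensity units, and the median log2 change over all probe sets was -0.02, so no array was rescaled. In bulk RNA of whole seedlings, more RNA per cell and more cells that hold the transcript cannot be told apart. Loci were known for no probe sets other than the 274 of the authors' deposited table, which had passed the authors' own filter. Of its 256 probe sets of 1 locus, 157 were higher and 99 lower in the mutant. The limma test called 11.0% of all probe sets (adjusted p under 0.05), and the share called higher in the mutant was 5.86%, against 5.13% called lower.

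The peptide gene AT1G47400 had an intensity of 1420, 1466 and 1470 in gapcp1gapcp2 replicates 1 to 3, against 56.4, 60.5 and 79.3 in wild type replicates 1 to 3. The mutant arrays lay within 1.04-fold of each other, while the highest wild-type array, replicate 3, stood apart from the other two. The means were 1452 ± 27.9 in the mutant and 65.4 ± 12.2 in wild type (SD, n = 3 each), a difference of 1387 ± 17.6 intensity units (SE). The lowest mutant array was 17.9 times the highest wild-type array, and the highest mutant array was 26.1 times the lowest wild-type array. On the log2(intensity + 16) scale the change was 4.18 ± 0.11 (SE).

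CYP82C4 had an intensity of 250.76, 364 and 336 in the mutant, against 7.32, 7.92 and 6.40 in wild type. The wild-type values were all close to 0 and close to each other, so nearly all of the spread came from the mutant arrays, where replicate 1 was the lowest. The means were 317 ± 59.0 in the mutant and 7.21 ± 0.766 in wild type, a difference of 309.7 ± 34.1 intensity units (SE). The ratio of these means was 43.9, with 31.7 for the lowest mutant over the highest wild-type array and 56.9 for the highest over the lowest. The deposited values hold no detection call, so whether the wild-type signal is transcript or residual background was not tested, and the ratio rests on those small values. The log2 change was 3.83 ± 0.14 (SE) with 16 added to each intensity.

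The oxygenase gene AT3G12900 had an intensity of 185, 183 and 167 in the mutant, against -3.38, 9.21 and 24.7 in wild type. Here the mutant arrays were close together and the wild-type arrays spread around 0, with replicate 1 below 0 and replicate 3 highest. The means were 178 ± 9.47 in the mutant and 10.2 ± 14.0 in wild type, a difference of 168 ± 9.78 intensity units (SE). No ratio of means is given because a wild-type value is below 0. The lowest mutant array was 6.79 times the highest wild-type array. The log2 change of 2.93 ± 0.32 (SE) had the widest error of the 3 genes.

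**Figure D1:**
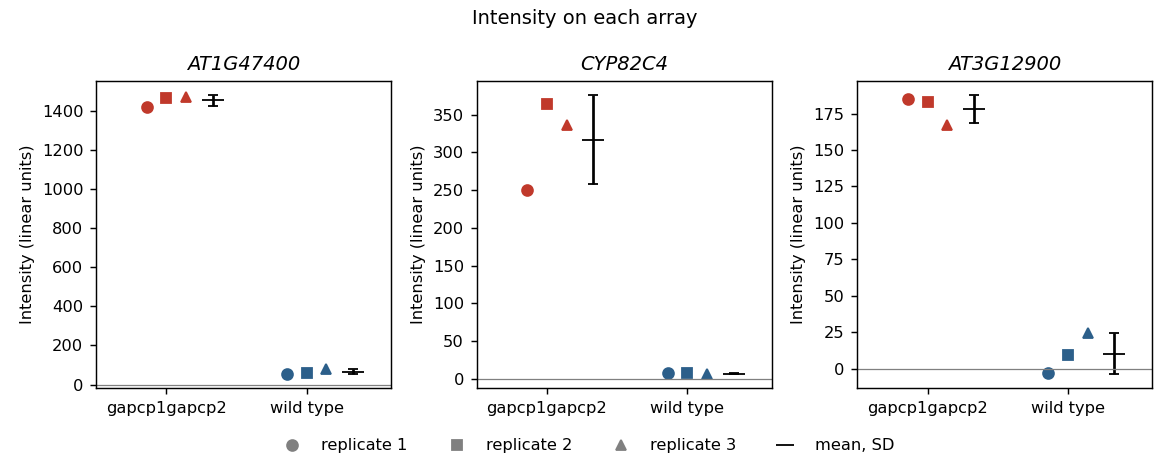
Intensity of AT1G47400, CYP82C4 and AT3G12900 on each array (linear units, 1 panel and axis range per gene), with gapcp1gapcp2 in red and wild type in blue; marker shape gives the replicate number and the black bar the mean with its SD (n = 3). For all 3 genes the genotypes do not overlap, with mutant means of 1452, 317 and 178 and wild-type means of 65.4, 7.21 and 10.2.

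For none of the 3 genes did the mutant arrays overlap the wild-type arrays. Among all probe sets, 15.5% had every mutant array above every wild-type array, and since the genes were chosen on this contrast nothing is read from their own count. On the log2(intensity + 16) scale AT1G47400 had the highest log2 change of the 22746 probe sets. CYP82C4 held rank 3, behind AT1G47400 and IRT1, and AT3G12900 held rank 9. With a pseudocount of 1 the ranks were 8 for AT1G47400, 3 for CYP82C4 and 6 for AT3G12900, and with one of 64 they were 1, 5 and 34. By the difference in intensity the genes held ranks 15, 374 and 805, in the order AT1G47400, CYP82C4 and AT3G12900. The enzyme genes CYP82C4 and AT3G12900 ranked far lower by difference than by log2 change, and their wild-type intensities were near 0.

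**Figure D2:**
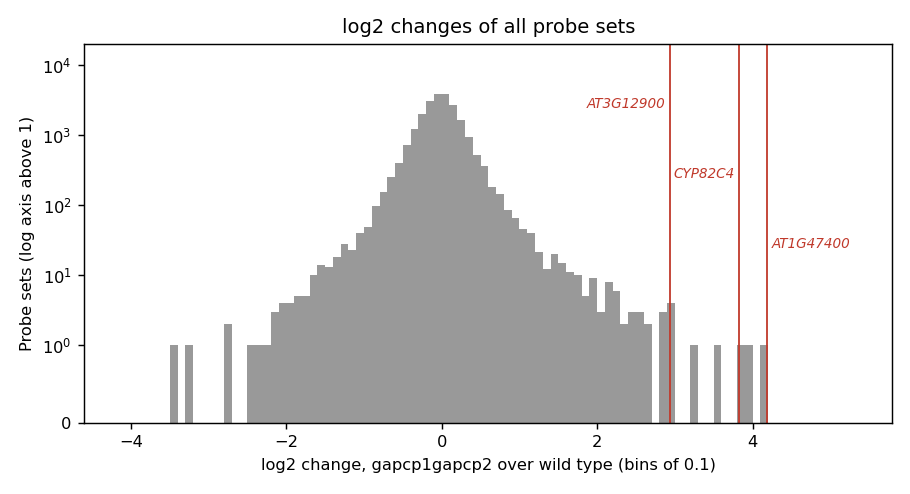
Number of probe sets (log axis above 1) by log2 change on the log2(intensity + 16) scale, gapcp1gapcp2 over wild type, in bins of 0.1, for all 22746 probe sets. Red lines mark AT3G12900 at 2.93, CYP82C4 at 3.83 and AT1G47400 at 4.18, all at the far right of the distribution.

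The order of the 3 genes by log2 change turned with the pseudocount. With 1 added to each intensity, CYP82C4 was highest at 5.26 ± 0.17, AT3G12900 followed at 4.81 ± 1.21 and AT1G47400 was lowest of the 3 at 4.47 ± 0.14 (SE). With 64 added, AT1G47400 led at 3.55 ± 0.07, and CYP82C4 and AT3G12900 had 2.41 ± 0.11 and 1.70 ± 0.11. AT1G47400 kept a higher log2 change than CYP82C4 from a pseudocount of 16 upwards among those tried, and CYP82C4 exceeded AT3G12900 at each pseudocount from 1 to 256. From a pseudocount of 1 to one of 64, the log2 change moved least for AT1G47400, whose wild-type intensity is clear of 0.

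**Figure D3:**
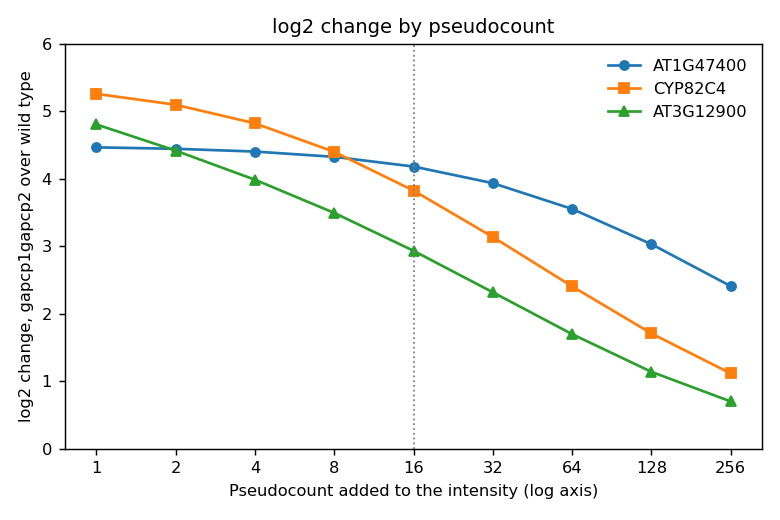
log2 change of gapcp1gapcp2 over wild type (means of 3 arrays each) for the 3 genes, against the pseudocount added to each intensity (log axis, 1 to 256); the dotted line marks 16, used elsewhere. CYP82C4 is highest up to 8 and AT1G47400 from 16 on, while the curve of AT3G12900 stays below that of CYP82C4 throughout.

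The authors' deposited table gives its own group means and fold changes for these genes. For AT1G47400, the authors' deposited table lists means of 1457.8 in the mutant and 65.86 in wild type, with a fold change of 22.13 (bounds 18.07 and 28.42). For CYP82C4, the authors' deposited table lists 313.69 in the mutant and 7.64 in wild type, a fold change of 41.05 (28.69 and 64.35) that is the highest of its 274. For AT3G12900, the authors' deposited table lists 170.14 in the mutant and 15.75 in wild type, a fold change of 10.8 with wide bounds (6.05 and 48.69). All 6 of these means lie within the range of the arrays used here. The unadjusted p in the authors' deposited table was 0.000486 for AT1G47400, 0.0125 for CYP82C4 and 0.000116 for AT3G12900, so its largest fold change had the largest p of the 3. These p-values belong to the filter that admitted the genes to that table and are not evidence apart from the choice of the genes.

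Within each genotype the 3 genes did not all share an order of arrays. In wild type AT1G47400 and AT3G12900 shared one, rising from replicate 1 to replicate 3. In the mutant, replicate 1 of the values as deposited was lowest for AT1G47400 and CYP82C4 but highest for AT3G12900. In wild type, replicate 3 was highest for AT1G47400 and AT3G12900 but lowest for CYP82C4. The deviation of mutant replicate 1 from the mutant mean was -0.03 for AT1G47400, -0.30 for CYP82C4 and 0.05 for AT3G12900 on the log2(intensity + 16) scale. CYP82C4 was thus the gene with a clear dip on that array. Mutant replicate 1 also gave the lowest mutant value for 51.4% of all probe sets and had the lowest median of the 6 arrays. With each array centred on its median the dip of CYP82C4 was -0.26, and mutant replicate 1 was lowest for 37.5% of all probe sets. Replicate 1 was then the highest mutant array for AT1G47400 (0.014, against -0.007 and -0.008), as it was for AT3G12900 (0.094). The low place of AT1G47400 on that array thus did not outlast centring.

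Likeness between genes was measured as the root mean square difference of their log2(intensity + 16) profiles over the 6 arrays, each profile taken minus its own mean. It describes these arrays only and was computed against 253 other named probe sets of 1 locus. Much of it restates the genotype change on which these genes and all 253 candidates were selected, since 2 genes with unequal log2 changes differ by 0.5 of that inequality even where their arrays vary alike. The squares of this part and of the part within genotypes add up to the square of the whole. The gene most like CYP82C4 was IRT1, the main iron importer of the root, at 0.10, of which the genotype change gave 0.08 and differences within genotypes 0.05. IRT1 had an intensity of 486, 681 and 684 in the mutant, against 25.4, 23.3 and 21.3 in wild type. It too was lowest on mutant replicate 1, with a deviation of -0.32 from the mutant mean. IRT1 was also the gene most like AT1G47400, at 0.24 (0.10 from the genotype change and 0.22 within genotypes), followed by BHLH101 (0.49), which encodes a transcription factor of iron deficiency, and AT1G80130 (0.49), which the deposited table describes as an unknown protein. The next genes for CYP82C4 were AT1G80130 and BHLH101, both at 0.38.

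The genes most like AT3G12900 at this pseudocount were AT3G61930 (0.33), listed as a hypothetical protein, BGL2 (0.33), a beta-glucanase gene known from pathogen defence, and AT1G80130 (0.37). AT3G61930 had an intensity of 219, 239 and 225 in the mutant, against 19.9, 24.8 and 33.0 in wild type. BGL2 had 378, 406 and 379 in the mutant, against 45.0, 46.5 and 65.8 in wild type. Both share with AT3G12900 a highest wild-type value on replicate 3, and neither is on the iron list. Their log2 changes, 2.55 for AT3G61930 and 2.57 for BGL2, lie near that of AT3G12900. The part from the genotype change was 0.19 and 0.18 in log2 units, against 0.26 and 0.27 within genotypes. Between the 3 genes themselves the difference was 0.27 for AT1G47400 and CYP82C4, 0.68 for AT1G47400 and AT3G12900, and 0.63 for CYP82C4 and AT3G12900. For AT3G12900, the part from its smaller log2 change was 0.62 in log2 units against AT1G47400 and 0.45 against CYP82C4. The parts within genotypes were 0.28 against AT1G47400 and 0.44 against CYP82C4. Between AT1G47400 and CYP82C4 these parts were 0.18 from the genotype change and 0.20 within genotypes. The measure depends on the pseudocount. IRT1 was most like AT1G47400 at pseudocounts of 1, 16 and 64, and most like CYP82C4 at 1 and 16 but not at 64, where the sulfur deficiency gene ATSDI1 was (0.12). The gene most like AT3G12900 was a different one at each (AT2G04050 at 1 and DFR at 64).

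The other genes of iron handling were taken from a list of 40, of which 14 had a named probe set. Of these 14, 10 rose and 4 fell in the mutant at a limma adjusted p under 0.05, against 5.86% and 5.13% of all probe sets. The median log2 change of the 14 was 1.49, against -0.02 over all probe sets. Only genes that passed the authors' filter on the same contrast could be named, so the naming fixed that all 14 were called. The size of the median also rests on that filter, which took changes in both directions. The split of 10 and 4 was not fixed by it. Of the 256 probe sets of 1 locus in the authors' deposited table, 157 were higher and 99 lower in the mutant. The list was drawn up with earlier results of these data known. Nothing is read from the count called, from the median or from the split. The changes of single genes below are likewise given as a description, with no p. The remaining 26 had no probe set under their locus in the authors' deposited table. Whether they missed its filter or had no probe set of their own was not seen, and their values were not analysed.

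Among regulators, bHLH39 encodes a partner of the master regulator FIT in switching on iron uptake genes. Its intensity was 320, 408 and 411 in the mutant, against 49.3, 46.0 and 46.7 in wild type (log2 change 2.64 ± 0.11 SE). BHLH101, of the same subgroup, had 298, 261 and 278 in the mutant, against 21.1, 3.36 and 6.0 in wild type. As for AT3G12900, its wild-type arrays lay near 0 and differed among themselves, but here replicate 1 was highest. BTS, the ligase bound by peptides of the AT1G47400 family, had 874, 808 and 884 in the mutant, against 282, 320 and 335 in wild type (1.41 ± 0.09). PYE, a repressor that tunes iron homeostasis, had 227, 239 and 242 in the mutant, against 102, 113 and 95.5 in wild type (1.08 ± 0.08). The changes of BTS and PYE were smaller than that of AT1G47400 on the same scale.

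Among transport genes, OPT3 loads iron into the phloem for shoot-to-root supply. It had 704, 954 and 885 in the mutant, against 299.99, 299.5 and 243 in wild type (1.54 ± 0.14). FRO3, a ferric reductase of mitochondria, had 817, 916 and 981 in the mutant, against 274, 301 and 290.2 in wild type (1.59 ± 0.09). OPT3 and FRO3 were, like CYP82C4 and IRT1, lowest among mutant arrays on replicate 1. ZIF1, a vacuolar transporter whose activity alters zinc and iron partitioning, had 1019.8, 1082 and 1049.95 in the mutant, against 358, 379 and 398 in wild type (1.44 ± 0.07). Its mutant arrays lay close together, as those of AT1G47400 did.

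Nicotianamine, a metal chelator that moves iron within the plant, is made by the NAS enzymes. NAS2 had 1155 ± 93.0 in the mutant and 256 ± 23.6 in wild type, and NAS4 had 627 ± 36.5 in the mutant and 177 ± 21.4 in wild type (SD, n = 3 each). NAS3 went the other way, with 57.3 ± 11.8 in the mutant and 188 ± 10.7 in wild type (-1.49 ± 0.13 SE). Ferritins store iron, and their genes are known to be repressed when iron is short. FER1, FER3 and FER4 had log2 changes of -1.84, -1.20 and -1.31, and FER2 had no named probe set and was not analysed here. On the highest of the mutant arrays FER4 had an intensity of 305, against 630.17 on the lowest wild-type array.

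**Figure D4:**
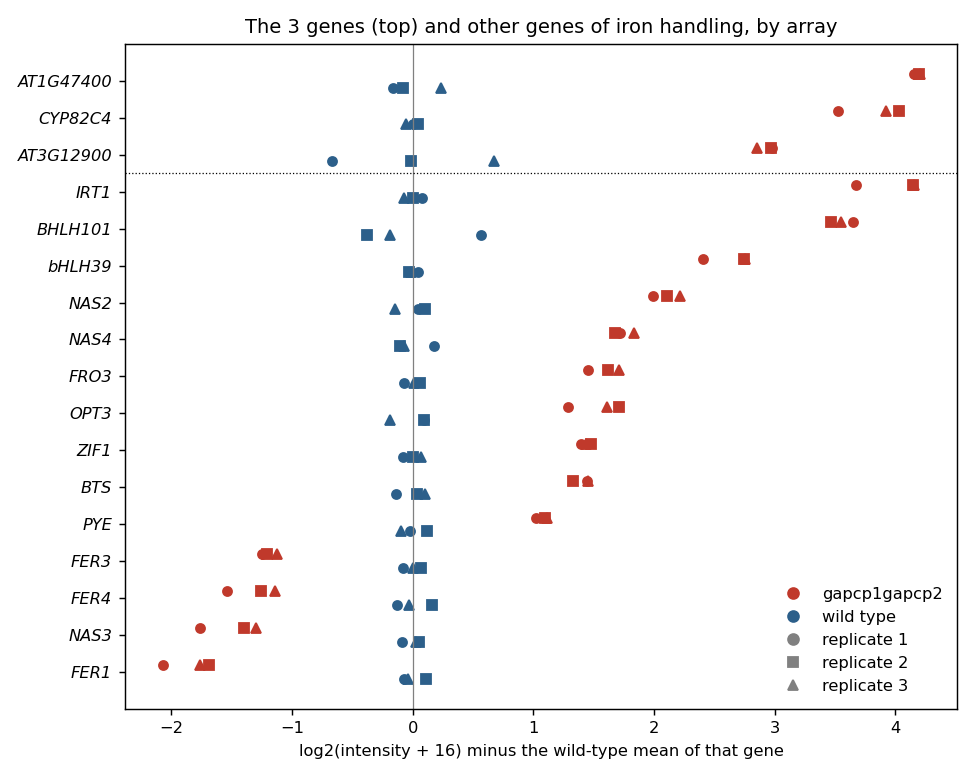
log2(intensity + 16) on each array minus the wild-type mean of the same gene, for AT1G47400, CYP82C4 and AT3G12900 (above the dotted line) and for the 14 other named genes of iron handling, in order of change; red is gapcp1gapcp2, blue is wild type, and marker shape gives the replicate. The mutant arrays of the 3 genes lie between 2.85 and 4.20, and those of the 4 genes that fell, FER3, FER4, NAS3 and FER1, reach at most -1.13.

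Mutant replicate 1 was the lowest mutant array for 7 of the 10 iron genes that rose, IRT1, bHLH39, NAS2, FRO3, OPT3, ZIF1 and PYE. Among all probe sets called higher this share was 62.6%. It was also lowest for NAS3, FER1, FER3 and FER4, which fell. With arrays centred on their median it was lowest for 6 of the 10, against 42.7% of probe sets called higher. Its centred deviation from the mutant mean was -0.23 for NAS3, -0.19 for FER1 and -0.18 for FER4. For FER3 it was -0.01, and replicate 2 was then lowest at -0.03. The part of array differences in this pattern was not tested.

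For the steps of coumarin synthesis before and beside AT3G12900 and CYP82C4, a list of 18 genes was drawn up. It runs from phenylalanine ammonia-lyase through the oxygenase F6'H1 to the exporter ABCG37. None of the 18 had a named probe set, so their values were not analysed here and no change or lack of change is stated. In the TAIR10.1 annotation of RefSeq, CYP82C4 on chromosome 4 is next to CYP82C3, and CYP82C2 lies 3 protein-coding genes away. AT1G47400 on chromosome 1 is next to AT1G47395. None of the 3 protein-coding genes on either side of each of the 3 loci was in the authors' deposited table, so whether neighbouring loci moved with them was not seen. The probe sets of the 3 loci are not of the kind shared between transcripts. With no probe sequences used here, cross-hybridisation of CYP82C4 with CYP82C3 or CYP82C2 was not tested. Nor was that of AT1G47400 with AT1G47395, which is on the iron list.

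The coumarin and uptake genes are known from roots, and the RNA came from whole seedlings. Of 18 root markers, 4 had a named probe set. CASP1 of the endodermal barrier, the tonoplast channel gene TIP2;3 and ESB1 of the same barrier were lower in the mutant (log2 changes of -1.50, -1.57 and -1.29). The nitrate transporter gene NRT2.1 was higher, at 2.16. The summed intensity of the 4 markers was 1309 to 1383 on the mutant arrays and 1704 to 1742 on the wild-type arrays, and none of the 4 was at 0. Only markers that passed the authors' filter on the same contrast could be named. Each thus had to differ between the genotypes, and their sum cannot measure root share. ESB1 alone had 177, 175 and 176 in the mutant, against 483, 445 and 435 in wild type. None of 12 leaf markers had a named probe set. The part of root share in the changes of CYP82C4, AT3G12900 and AT1G47400 was not tested.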

How the data were processed

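The deposited values are a linear intensity for each probe set. Per the submitters' processing notes GCOS was used, and how the arrays were scaled is not given in the sources used here. Negative intensities (1.85% of values) were set to 0, log2(intensity + 16) was taken, and limma 3.58.1 (R 4.3.3; lmFit and eBayes, two-sided) was fitted to all 22746 probe sets on 6 arrays, with no block, Benjamini-Hochberg adjusted p-values and a threshold of 0.05. Raw intensities are printed as deposited.

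The authors' deposited table (274 probe sets) kept, per the file headers, changes above 2-fold and above 100 intensity units whose p-value did not exceed 0.05. Per the file headers, its fold change is a signed score with bounds, which the authors made from their group means, and its means are intensity values averaged with standard errors, and its array numbers exceed the arrays used here, so its arrays may differ. Its t statistic lost its decimal point and was not used. Its probe sets shared between transcripts (18) were not named, and 273 of 274 loci were in the RefSeq table of TAIR10.1. Of the listed names, 4 of 40 iron and 2 of 18 coumarin entries were matched by locus only.

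Genes named are the 3 loci, the iron and coumarin list members with a named probe set, and the 3 named genes most like each locus; genes at other pseudocounts and root markers were named after their values were seen. The 3 loci and the lists were chosen with earlier results of these data known. The limma p-values set the difference between genotypes against the spread between 3 plant sets per genotype. That spread is moderated across all probe sets, and the number of arrays limits precision. Sample descriptions that speak of embryos match no other label and were not used. Tables and plots were made with Python 3.11.15, numpy 2.4.6, pandas 2.3.3, and matplotlib 3.10.9. The fit was tested on simulated data, with changes placed only in probe sets at or above the median wild-type level. The 3 loci lie below that level in wild type, so the simulation does not cover them. Alternatives were another normalisation, pseudocount, dim filter or moderation, array weights, a 2-fold minimum, a replicate block and leaving out arrays. Same-numbered arrays had deviations from the group means with a correlation of 0.23 for number 1 and 0.02 for each of the others. Between unlike numbers it was 0.17 for mutant replicate 2 with wild type replicate 3, and 0.14 for mutant replicate 3 with wild type replicate 2. The remaining pairs were below 0. The labels do not say that a number marks a shared set, so the arrays were not treated as pairs. Whether arrays of unlike number shared a set was not tested.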

Additional observations from a re-analysis of the deposited data

How the results depend on the processing

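No log2 change of the 3 loci changed sign under any alternative, which is no sign of stability, as the loci were chosen on the genotype contrast. A pseudocount of 1 moved them to 4.47 for AT1G47400, 5.26 for CYP82C4 and 4.81 for AT3G12900, and a pseudocount of 64 to 3.55, 2.41 and 1.70. Under the other alternatives they moved by less than the spread between replicates. The replicate block, the moderation, the 2-fold minimum and the dim filter could not move a log2 change. Without each array in turn the range was 4.10 to 4.30 for AT1G47400, 3.72 to 3.98 for CYP82C4 and 2.60 to 3.27 for AT3G12900. Leaving out the dimmest 40% of probe sets removed AT3G12900, and the dimmest 60% also removed CYP82C4. Without both arrays numbered 1, an alternative chosen after seeing the data like that of keeping values below 0, the changes were 4.12, 3.98 and 2.58. With values below 0 kept, AT3G12900 had 3.05. The count of iron genes called was 14 without any 1 array, and 9 with the dimmest 60% left out, since only 9 were then tested. The 246 alternative values of these 14 genes all kept their call and direction, and as the authors' filter chose the genes this is no sign of stability. No alternative could be computed for the coumarin list, since no member was named.

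The count of calls over all probe sets was 2501. It was 390 with a 2-fold minimum, by construction, 3779 with array weights and 1504 without both arrays numbered 1. Leaving out 1 array gave 1190 to 2347, with 1190 without gapcp1gapcp2 replicate 2, 1197 without gapcp1gapcp2 replicate 3 and 1422 without wild type replicate 2. The cause of the move with array weights was not tested. The replicate block gave 1687 calls and changed no call of an iron gene. Each replicate number has 1 array per genotype, so the block cannot move a log2 change. Those of AT1G47400, CYP82C4 and AT3G12900 thus stayed at 4.18, 3.83 and 2.93. Signal near 0 in wild type limits how well the size of change of CYP82C4 and AT3G12900 is known, and that size depends on the pseudocount.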
